A study of Homo sapiens with 18 samples.

Results

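The change over time inside enzastaurin-treated U251 cells is described here, as 3 arrays after 10 h of treatment set against 3 arrays after 4 h. These 6 of the 18 arrays of the series were taken by the treatment and time in their titles, and no measured value entered the choice. U251, a long-established line from a human glioblastoma, was grown in RPMI medium with 5% serum. Enzastaurin was made as an inhibitor of the beta form of protein kinase C. The title of the series names inhibition of the kinase GSK3, glioma cell death, c-MYC, NF-kB and glucose. DMSO, the vehicle, was given to separate cells for the same hours, and its 3 arrays at 4 h and 3 arrays at 10 h show what changed in the line without the drug. The dose of enzastaurin is not given in the labels, all samples come from 1 cell line, and the serum and medium were the same in each group. The labels do not say whether the 3 replicates of a group were separate cultures, so the p-values speak only of variation among these arrays, part or all of which may be technical.

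Total RNA was copied into biotinylated cRNA and hybridised to Affymetrix HG-U133 Plus 2.0 arrays, which give 1 scaled signal intensity for each probe set. Levels below are these intensities, and changes are differences of group means on the scale of log2(intensity + 16), which understates the change of dim genes. The array medians of the 6 arrays lay between 99.2 and 118.2, and arrays of 1 group correlated at 0.977 to 0.986 in all 6 groups of the series. The third enzastaurin array at 10 h lay farthest from its group, with a root mean square deviation of 0.242 against 0.188 to 0.237 in the others. RNA came from whole cultures, so a change in the share of cells that express a gene and a change per cell cannot be told apart. The number of arrays limits the precision, with a median standard error (SE) of 0.134 for a log2 change.

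As background, GSK3 marks beta-catenin for destruction, so a block of GSK3 is known to raise transcripts of Wnt feedback genes such as AXIN2. Protein kinase C feeds into ERK and NF-kB signalling, which drive immediate early genes and secreted cytokines. ATF4 is the transcription factor of the integrated stress response and switches on genes that make, import and charge amino acids. SREBP factors switch on sterol and fatty acid synthesis when sterols in the endoplasmic reticulum are low, and XBP1 and ATF6 switch on chaperones when proteins misfold there.

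Between 4 and 10 h of enzastaurin, 31 of 47 genes of amino acid supply and the ATF4 response rose (CTH by 1.46, TRIB3 by 1.33, ASNS by 1.26 on the log2 scale) and 12 of 31 sterol and fatty acid genes rose (STARD4 by 1.02, INSIG1 by 0.90). Single secreted factors fell (CXCL8 at -2.48, EDN1 at -1.90, PLAU at -1.70) and others rose (GDF15 at 1.41, VEGFA at 1.05). In DMSO cells CXCL8 (-2.40) and PLAU (-1.63) fell by nearly as much. EDN1 (-1.10), GDF15 (0.41) and VEGFA (0.26) changed less there. Each gene was read from its brightest probe set, and the 12376 of 19775 genes with a mean above 102, the median level of all probe sets, were tested with limma. Of these, 2125 passed an adjusted p of 0.05 (17.2%), of which 1268 were higher at 10 h (10.2%) and 857 lower (6.92%). A change of at least 2-fold was present in 96 of them, 50 higher and 46 lower. The median change of all genes was -0.01.

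DMSO cells changed as widely over the same 6 hours, with 1425 genes higher (11.5%) and 818 lower (6.61%), 2243 in all (18.1%). The DMSO arrays share no sample with the enzastaurin arrays. Of the 1268 genes higher in enzastaurin cells, 665 were also higher in DMSO cells, which is 52.4% of the first list and 46.7% of the second. Of the 857 genes lower, 407 were lower in both, or 47.5% and 49.8% of the 2 lists. Only 20 genes were called in opposite directions. Over all genes the 2 changes correlated at a Pearson r of 0.47 and a Spearman rho of 0.48, a description across genes, which are not independent replicates.

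The difference between the arms, that is the change in enzastaurin cells minus the change in DMSO cells, was tested for every gene and passed for 174 (1.41%), 100 more positive with enzastaurin (0.808%) and 74 more negative (0.598%). This test shares the enzastaurin arrays with the change itself. Of the 100 genes, 77 were called higher in enzastaurin cells, 4 were called lower, and 19 were called in DMSO cells alone, where they fell. Of the 74 genes, 43 were called lower in enzastaurin cells, 1 was called higher, and 30 were called in DMSO cells alone, where they rose. With 1 of the 12 arrays left out the count ran from 67, without the first enzastaurin array at 4 h, to 154, and it was at most 109 in 10 of the 12 fits, the exceptions being those without the third enzastaurin array at 4 h or at 10 h. When each array's median was subtracted, the median difference of all genes became -0.11, and 26 genes passed, 8 more positive and 18 more negative. Of the 35 named genes whose difference passed, 12 also passed under that setting (LIPG, SESN2, IDI1, INSIG1, STARD4, TRIB3, CCN2, RARB, SOX2-OT, PRSS35, LFNG and SALL2), and 20 passed when all probe sets of a gene were averaged. Under the array median setting the DMSO change had a median of 0.12 and a split of 1622 higher against 266 lower.

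**Figure D1:**
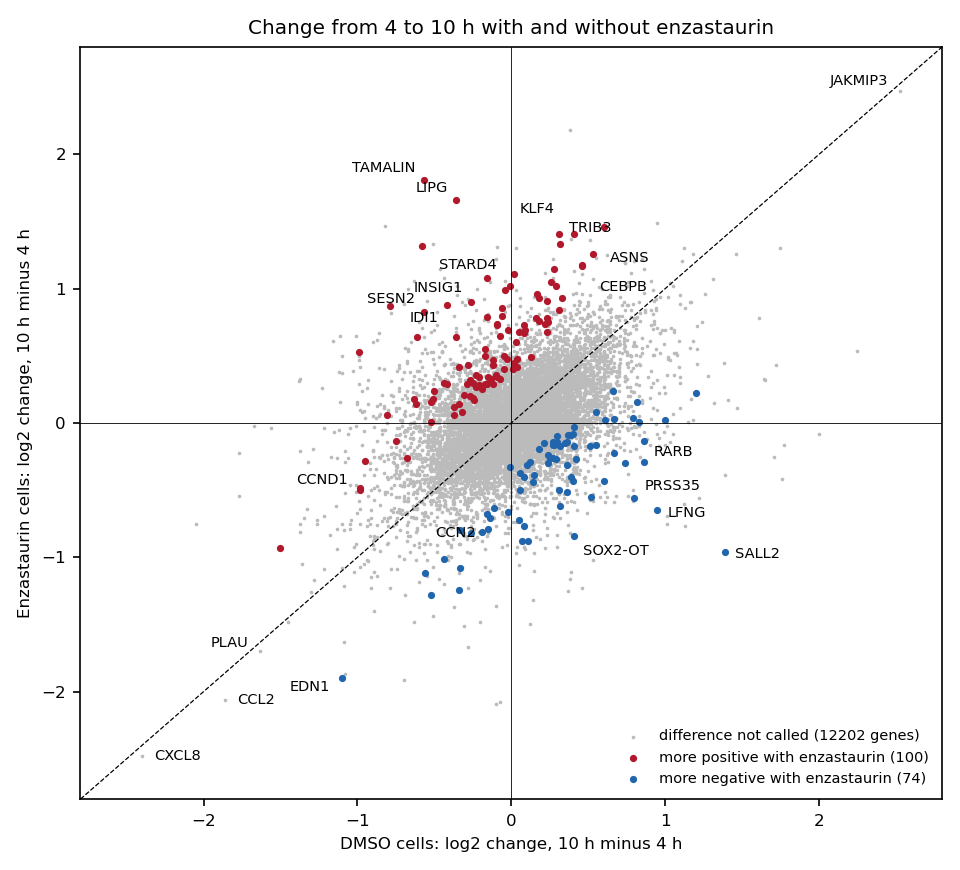
Change from 4 to 10 h of each of the 12376 genes, in DMSO cells (x axis, log2) and in enzastaurin cells (y axis, log2), with equal change on the dashed line. The 100 genes in red and 74 in blue passed the test of the difference between arms. CXCL8, CCL2, PLAU and JAKMIP3 lie near the dashed line far from 0, while LIPG, TRIB3, INSIG1 and KLF4 lie above it and SALL2 and LFNG below it.

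Genes were then read by 28 lists with 785 entries, of which 640 were tested. The counts of each list stand against 10.2% of all tested genes called higher and 6.92% called lower. In the list of ATF4 and amino acid genes 31 of 47 tested members rose and none fell, with a median change of 0.36 against -0.01 for all genes. Immediate early and ERK feedback genes had 14 of 32 members higher and 1 lower, and sterol and fatty acid genes 12 of 31 higher and none lower. On the other side, 17 of 33 YAP and TGF-beta targets fell and 4 rose, with a median of -0.33. Of 22 NF-kB cytokine and feedback genes 6 fell and none rose.

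**Figure D2:**
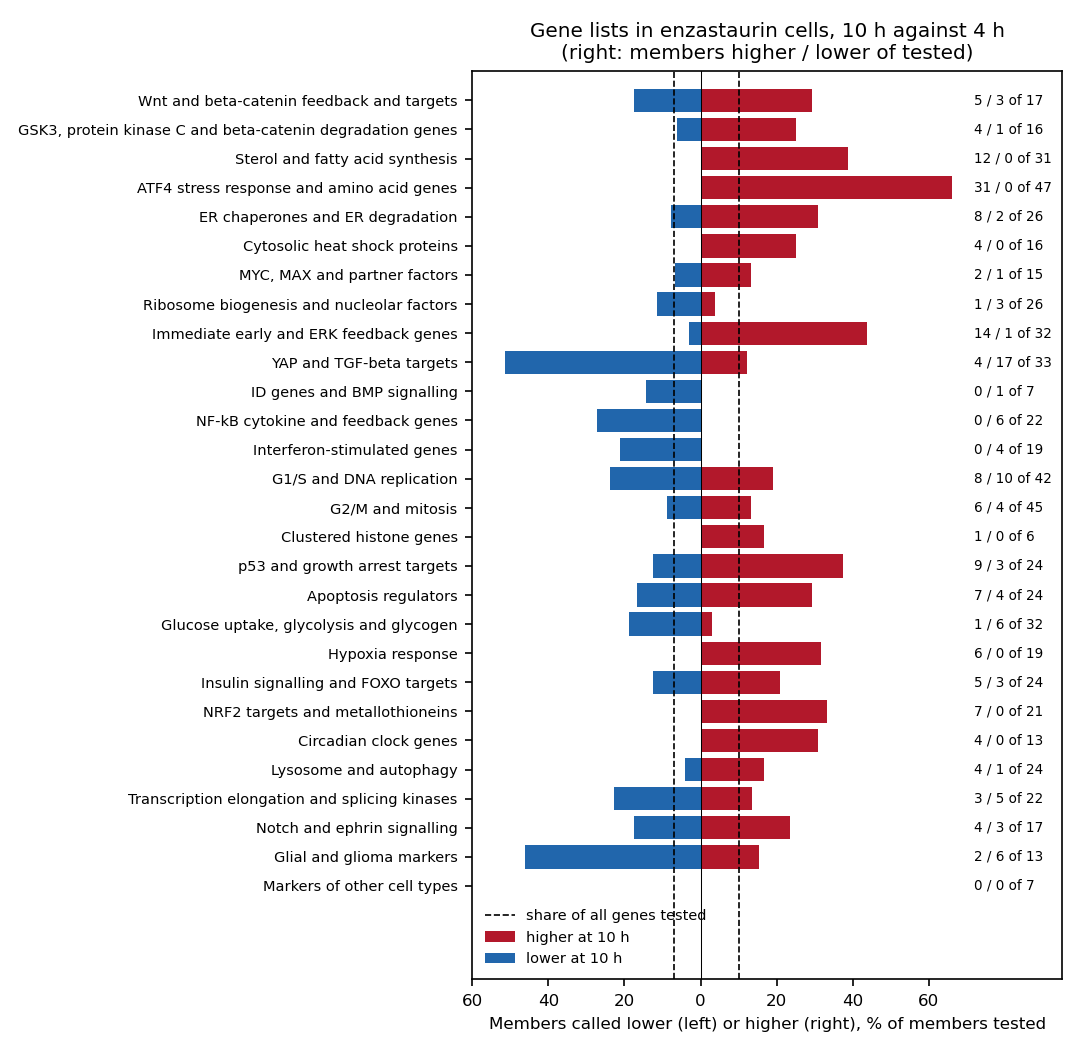
Percentage of tested members of each gene list called higher (red, to the right) or lower (blue, to the left) at 10 h against 4 h of enzastaurin. Dashed lines mark the shares of all genes tested, 10.2% higher and 6.92% lower, and the numbers on the right give members higher and lower of those tested. The ATF4 list has the longest red bar (66.0%) and the YAP and TGF-beta list the longest blue bar (51.5%).

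The ATF4 genes are described first, with the sequences that bear on them. Promoters were taken from the RefSeq table of the human assembly GRCh38.p14, as 250 bases before to 50 bases after each gene's start. The amino acid response element, to which ATF4 and C/EBP factors bind as pairs, was searched as TGATGNAA on both strands. It was present in 10 of the 38 list members with a promoter in the table (26.3%) and in 1.9% of the 10080 promoters of tested genes. Of the 26 members with a promoter that were called higher, 5 held it: ATF3, ASNS, AARS1, CARS1 and TARS1. The other 5 that held it, CHAC1, SLC7A1, SLC3A2, IARS1 and NARS1, were not called, so the letters were not confined to members that rose. The 250 bases before the start are shown for ASNS, a classic target of this element, and for AARS1, with the matched letters in capitals. ASNS lies at chr7:97872409-97872658 and AARS1 at chr16:70289507-70289756, both on the minus strand and both read 5′ to 3′ toward the gene. A match is a description of the letters, not a measured site.
ASNS: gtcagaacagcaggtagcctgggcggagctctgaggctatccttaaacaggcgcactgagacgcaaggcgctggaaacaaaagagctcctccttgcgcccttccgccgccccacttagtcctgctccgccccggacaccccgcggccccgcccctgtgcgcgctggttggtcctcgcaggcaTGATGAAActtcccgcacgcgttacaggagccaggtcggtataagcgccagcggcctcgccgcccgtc
AARS1: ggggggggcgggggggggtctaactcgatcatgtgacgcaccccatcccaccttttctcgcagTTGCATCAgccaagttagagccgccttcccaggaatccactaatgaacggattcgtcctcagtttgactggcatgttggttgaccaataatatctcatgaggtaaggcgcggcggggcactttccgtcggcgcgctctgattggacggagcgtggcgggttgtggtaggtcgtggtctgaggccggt

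Asparagine synthetase, the enzyme made from ASNS, had intensities of 1857, 1917 and 2364 at 4 h and 4822, 5346 and 4532 at 10 h of enzastaurin (log2 change 1.26, SE 0.09, adjusted p = 2.0e-08), and with its probe sets averaged the change was 0.67 (adjusted p = 0.0354). The 2 times did not overlap, and DMSO cells rose less, from 1608, 1582 and 1809 to 2385, 2377 and 2441 (0.53, difference 0.73, adjusted p = 0.00597). CTH, which makes cysteine from cystathionine, went from 631, 595 and 706 to 1725, 1894 and 1776 (1.46, adjusted p = 2.0e-09), and its difference from DMSO was 0.86 (adjusted p = 0.00114). The serine pathway genes PHGDH (0.70), PSAT1 (0.68) and PSPH (0.90) rose together. In DMSO cells these 3 also rose, by 0.49, 0.23 and 0.73, and only the difference for PSAT1 passed (0.45, adjusted p = 0.0226). Of the amino acid enzymes 7 passed in all, and SHMT2 (0.04), PYCR1 (0.01) and ALDH18A1 (-0.22) did not.

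Among the factors, CEBPB, a C/EBP factor that pairs with ATF4, had intensities of 2699, 2854 and 2982 at 4 h and 6592, 6647 and 6001 at 10 h (1.17, adjusted p = 2.2e-10). Its DMSO arrays read 3545, 3559 and 3812 at 4 h and 5107, 4806 and 5068 at 10 h, so the enzastaurin arrays were below DMSO at 4 h and above it at 10 h. The difference between arms was 0.71 (adjusted p = 2.8e-04). ATF4 itself rose by 0.27 (adjusted p = 0.0122) while it fell by 0.23 in DMSO cells (difference 0.51, adjusted p = 0.0165). ATF3, a stress-induced repressor, rose by 0.79, and CEBPG, another partner of ATF4, by 0.60, and both differed from DMSO (0.95 and 0.56). DDIT3, which encodes the factor CHOP, changed by 0.04 (adjusted p = 0.906).

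TRIB3, a pseudokinase that feeds back on ATF4, rose from 1556, 1618 and 1677 to 4422, 4411 and 3516 (1.33, adjusted p = 1.0e-08) against 0.32 in DMSO cells (difference 1.01, adjusted p = 4.2e-04). The third array at 10 h was the lowest of its group and still above every array at 4 h. Such a lack of overlap was required of the 15 largest rises, TRIB3 among them. Of all genes tested, 17% had the 3 arrays at 10 h all above those at 4 h, and 15.5% all below. SESN2, a sestrin that restrains mTORC1 when amino acids are short, had 992, 942 and 1085 at 4 h and 1664, 1889 and 1869.8 at 10 h. In DMSO cells SESN2 went the other way, from 659.9, 700.4 and 723 to 492, 413 and 489, so the difference of 1.40 (adjusted p = 4.5e-05) joins a rise of 0.83 to a fall of 0.57. DDIT4, another mTORC1 inhibitor, rose in both arms (0.51 and 0.92). CHAC1 (0.27) and PPP1R15A (-0.02) did not pass.

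The amino acid transporters SLC1A4 (0.91), SLC7A5 (0.75), SLC38A2 (0.68) and SLC7A11 (0.32) rose, 4 of the list's transporters. SLC3A2, the heavy chain that pairs with SLC7A5, changed by 0.19 (adjusted p = 0.2). Of the tRNA synthetases, which charge tRNAs with amino acids, 8 rose, from 0.23 for TARS1 to 0.64 for CARS1. In DMSO cells none of the list's tRNA synthetases was called higher, while the difference between arms passed for YARS1 alone (0.36, adjusted p = 0.0475). VEGFA, the angiogenic growth factor, is also an ATF4 target and went from 1804, 1714 and 2106 to 3837, 4119 and 3728 (1.05, adjusted p = 1.1e-07). Its DMSO change was 0.26 and the difference 0.79 (adjusted p = 0.00237). VLDLR (0.84) and STC2 (0.76) rose as well. In DMSO cells 12 of the 47 members were higher and 5 lower (median 0.05), and the difference was more positive for 14 members and more negative for none.

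In the list of 31 tested sterol and fatty acid genes, 12 rose and none fell (median 0.18), against 1 higher (SC5D) and 6 lower in DMSO cells (median -0.17), and the difference was more positive for 8. INSIG1, which holds SREBP factors in the endoplasmic reticulum and is itself an SREBP target, had 2691, 2321 and 2716 at 4 h and 4652, 5136 and 4623 at 10 h (0.90, adjusted p = 1.1e-07). DMSO arrays stayed lower throughout, at 1008, 1040.5 and 1138 and then 928, 818 and 908, and the difference was 1.16 (adjusted p = 1.2e-05). IDI1, an isomerase of the isoprenoid pathway, rose from 1737, 2012 and 2274 to 3661, 3591 and 3839.5 (0.88, adjusted p = 2.3e-06). Its enzastaurin and DMSO arrays overlapped at 4 h (2328, 1816 and 1892 in DMSO), and DMSO then fell to 1512, 1514 and 1459, a difference of 1.30 (adjusted p = 3.2e-05).

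Other steps of the pathway moved the same way. HMGCS1, which makes the substrate of the statin target HMG-CoA reductase, changed by 1.08, MSMO1, a sterol oxidase, by 0.93, SQLE, squalene epoxidase, by 0.65 and STARD4, a cholesterol carrier, by 1.02. The differences from DMSO were 0.75 for MSMO1, 0.72 for SQLE and 1.02 for STARD4, all called, while that of HMGCS1 was not (0.81, adjusted p = 0.12). SC5D rose in both arms (0.56 and 0.46). The fatty acid branch was narrower, with SCD, a desaturase, higher by 0.50 and no call for FASN (-0.06), ACACA (-0.11), ACLY (-0.05) or FADS2 (-0.04). Nor did the factors SREBF1 (-0.22) and SREBF2 (0.12) pass.

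LIPG, the endothelial lipase, was the list member with the largest rise. It read 209, 152 and 210.4 at 4 h and 612, 635 and 649.7 at 10 h (1.66, adjusted p = 1.1e-05), with 207, 131 and 136 and 161, 91.5 and 109.5 in DMSO cells. At 4 h the arms overlapped, and at 10 h the 3 enzastaurin arrays stood far above the DMSO arrays (difference 2.02, adjusted p = 9.1e-04). The classic sterol element letters TCACCCCAC, on either strand, were in 1 of 28 promoters of the list, that of SREBF2, and in 0.4% of all promoters. Averaging the probe sets of a gene ended the call of the difference for IDI1 (adjusted p = 0.313) and, in the ATF4 list, for ASNS (adjusted p = 0.551). The dimmer probe set of ASNS had a mean of only 17.7 and a change of 0.07.

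**Figure D3:**
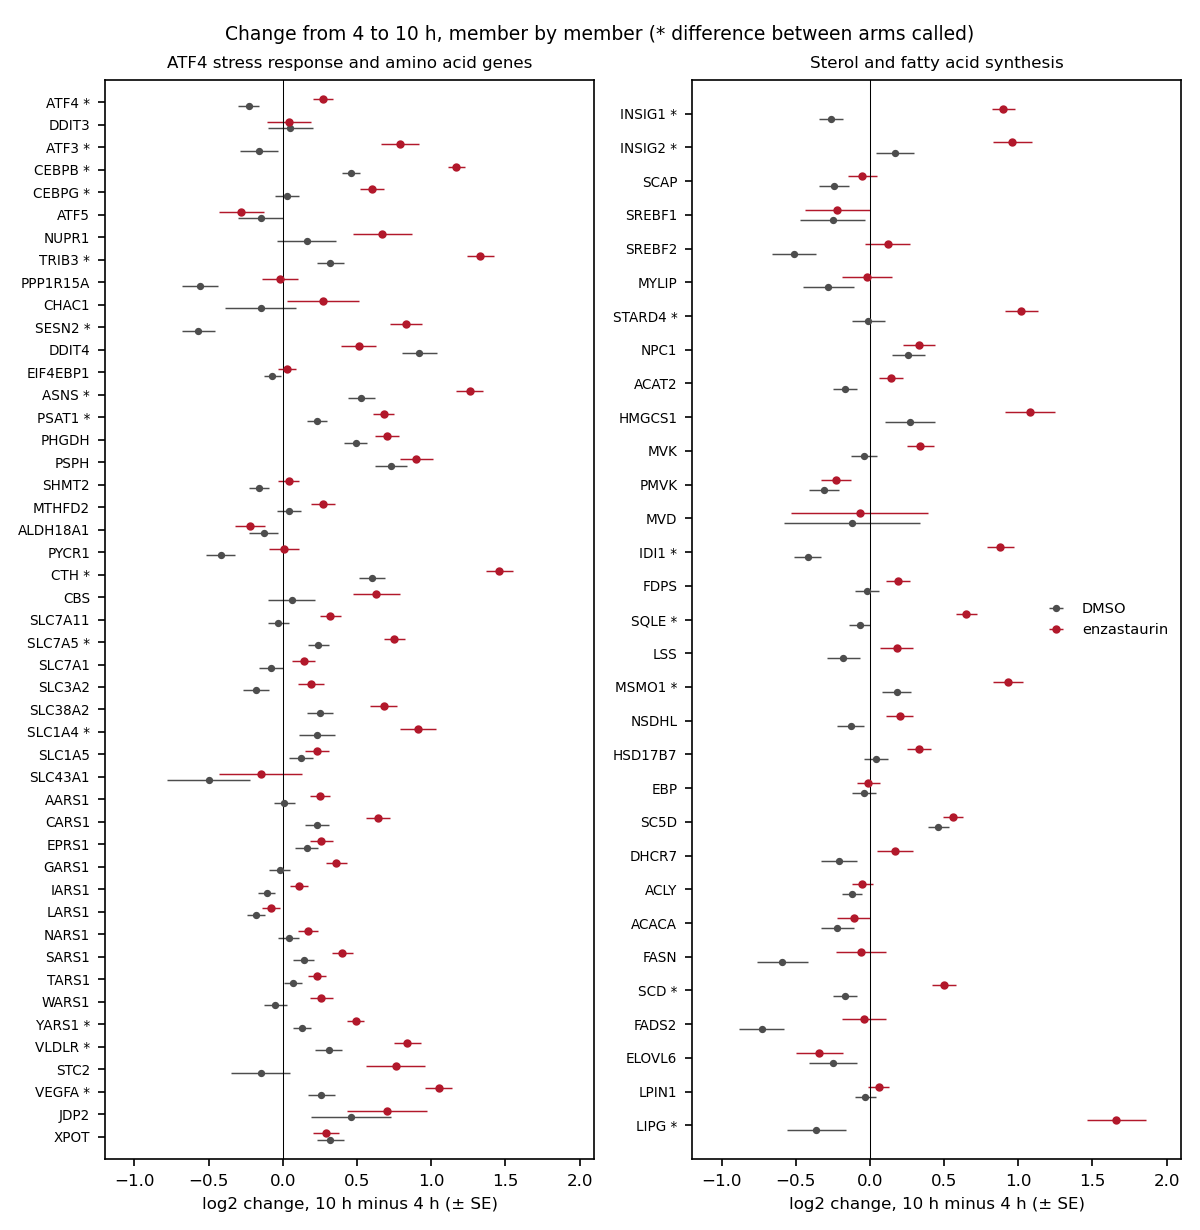
Log2 change from 4 to 10 h of every tested member of the ATF4 list (left) and the sterol list (right), in enzastaurin cells (red) and DMSO cells (grey), with bars of 1 SE. An asterisk marks the 14 and 8 members whose difference between arms passed the test. In both panels most red points lie to the right of the grey points.

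Stress genes of the endoplasmic reticulum rose in part. Of 26 tested members 8 were higher and 2 lower (median 0.10), against 2 higher and 4 lower in DMSO cells, and the difference passed for XBP1 and ERN1. The endoplasmic reticulum stress element was searched on both strands as CCAAT, then 9 bases of any kind, then CCACG, and was in 6 of 23 promoters of the list (26.1%) against 0.1% of all promoters. Its first letters are the CCAAT box, which was also searched alone. XBP1 and HSPA5 are shown because both rose and both hold the element, which is in capitals. XBP1 lies at chr22:28800570-28800819 and HSPA5 at chr9:125241344-125241593, both on the minus strand, and the 250 bases before the start are given 5′ to 3′. Of the other 4 promoters with the letters, CALR and CRELD2 belong to genes that fell, and HSP90B1 and CANX to genes that did not pass.
XBP1: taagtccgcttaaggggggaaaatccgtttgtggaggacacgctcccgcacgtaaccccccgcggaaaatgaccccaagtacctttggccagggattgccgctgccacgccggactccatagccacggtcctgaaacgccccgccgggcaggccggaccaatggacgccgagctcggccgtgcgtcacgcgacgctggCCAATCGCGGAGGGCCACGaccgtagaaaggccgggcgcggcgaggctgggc
HSPA5: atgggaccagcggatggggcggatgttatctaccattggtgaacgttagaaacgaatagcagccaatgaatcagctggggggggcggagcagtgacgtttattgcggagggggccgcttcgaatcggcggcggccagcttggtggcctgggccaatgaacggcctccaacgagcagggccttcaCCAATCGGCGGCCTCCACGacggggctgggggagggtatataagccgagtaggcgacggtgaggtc

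XBP1, the factor activated by splicing in this response, went from 2327, 2082 and 2386 to 3612, 3827 and 3536 with enzastaurin (0.69, adjusted p = 2.4e-06) and from 1961, 1796 and 1674 to 1819, 1800.3 and 1736 in DMSO cells. All 3 arrays at 10 h were above all others, and the difference was 0.71 (adjusted p = 0.00119). HERPUD1, which takes part in the degradation of misfolded proteins, rose by 0.59, and the degradation genes SEL1L (0.37) and SELENOS (0.34) rose too. The main chaperone HSPA5 (BiP) rose by 0.25 (adjusted p = 0.0259), DNAJB9 by 0.37 and DNAJC3 by 0.45. In contrast the calcium-binding chaperone CALR fell by 0.32 and CRELD2 by 0.37. ERN1, the sensor that splices XBP1, was not called with enzastaurin (0.14, adjusted p = 0.542) and fell by 0.62 in DMSO cells. With probe sets averaged, XBP1 (0.27, adjusted p = 0.482), HERPUD1 (0.38, adjusted p = 0.0636) and SEL1L (0.34, adjusted p = 0.0517) lost their calls, and 4 members of the list were called in place of 10. The dimmer probe sets of XBP1 and HERPUD1 had means of 65.7 and 18.6. Without the first enzastaurin array at 10 h 5 rose and none fell.

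Immediate early and ERK feedback genes, which growth signals switch on within minutes to hours, rose in 14 of 32 tested members and fell in 1 (median 0.32). In DMSO cells 10 rose and 1 fell (median 0.16), and the difference was more positive for 4 and more negative for 1. KLF4, a zinc finger factor, was at 299.8, 247 and 278 at 4 h and 808, 826 and 647 at 10 h (1.41, adjusted p = 1.2e-07). DMSO arrays read 465, 472 and 502 and 615, 571 and 608, so enzastaurin arrays began below DMSO and ended above it (difference 1.10, adjusted p = 0.00199). ZFP36, which speeds decay of cytokine mRNAs, changed by 1.32 from 132, 104 and 161 to 344, 302 and 413, with a difference of 1.90 (adjusted p = 0.0361). DUSP5, a phosphatase of nuclear ERK, rose from 311, 375 and 367 to 797, 841 and 796 (1.18), a level its DMSO arrays also had at 10 h (829, 780.4 and 797).

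Called higher in both arms were the feedback inhibitors SPRY2 (0.52 and 0.50), SPRED1 (0.54 and 0.39) and DUSP6 (0.38 and 0.37). ETV1, an ERK-induced factor, was the member that fell, from 523, 524 and 504 to 363, 402 and 314 (-0.51), while it rose in DMSO cells (0.36, difference -0.87, adjusted p = 0.0108). No AP-1 subunit passed, with JUN at 0.19 and FOSL1 at -0.34, nor did EGR1 (0.40). AP-1 letters, TGANTCA, were in 1 of 23 promoters of the list and in 4.7% of all. When probe sets were averaged, 7 members rose and 1 fell, and KLF4 lost its call (0.63, adjusted p = 0.119). The difference for ZFP36 was lost without any 1 of 9 of the 12 arrays of the 4 groups, and that for DUSP5 also without any 1 of 9 (adjusted p up to 0.0864 and 0.116).

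A further set of genes stood below DMSO at 4 h and rose by 10 h. The comparison with DMSO at 4 h shares the 4 h enzastaurin arrays with the change over time, so the values are only set side by side. Of all genes, 1.81% were called between the arms at 4 h (1.25% lower with enzastaurin) and 8.45% at 10 h (3.77% higher). HEXIM1, which holds the kinase P-TEFb inactive, was at 1142, 1021 and 1121 and then 1861, 1964 and 1635 with enzastaurin, and at 2382, 2474 and 2623 and then 3611, 3402 and 3632 in DMSO cells. It rose in both arms (0.72 and 0.51), and enzastaurin arrays were below DMSO at both times. BCL6, a repressor under FOXO control, went from 192, 258 and 230.1 to 395, 414 and 374 (0.77), with DMSO at 416, 446 and 509.5 and 501, 498 and 475. IRS2, the insulin receptor substrate, reached 1660.5, 1803 and 1728 from 1128, 1336 and 1259, where its DMSO arrays (1533, 1933 and 1818) also lay. EFNA1, an ephrin ligand, was dim at 4 h (21.8, 32.7 and 29.1) and read 141, 109 and 55.6 at 10 h, still below the 3 DMSO arrays (304, 231 and 276).

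TAMALIN, a scaffold protein gene, was far under the median level of 102 at 4 h of enzastaurin, so the size of its change is not firm. Its arrays read 13.5, 41.4 and 54.3 at 4 h and 135, 169.7 and 167 at 10 h of enzastaurin, and 338, 210.1 and 201 and 165, 162 and 148 in DMSO cells. Enzastaurin arrays were far below DMSO at 4 h and at the DMSO level at 10 h (difference 2.38, adjusted p = 0.037), a call that failed in 11 of 12 fits with 1 array left out (adjusted p up to 0.109). In the list of elongation and splicing genes 3 of 22 rose and 5 fell (13.6% and 22.7%, median -0.05), in DMSO cells 3 and 2. Without the first enzastaurin array at 4 h or the second at 10 h, 2 rose and 3 fell. The splicing kinases CLK1 (-0.51), CLK2 (-0.49) and CLK3 (-0.39) and the splicing factors SRSF5 (-0.44) and SRSF6 (-0.36) were lower, SRSF5 and SRSF6 in DMSO cells too. With probe sets averaged HEXIM1 changed by -0.08, BCL6 by 0.55, IRS2 by 0.30 and SRSF5 by -0.24, none called.

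**Figure D4:**
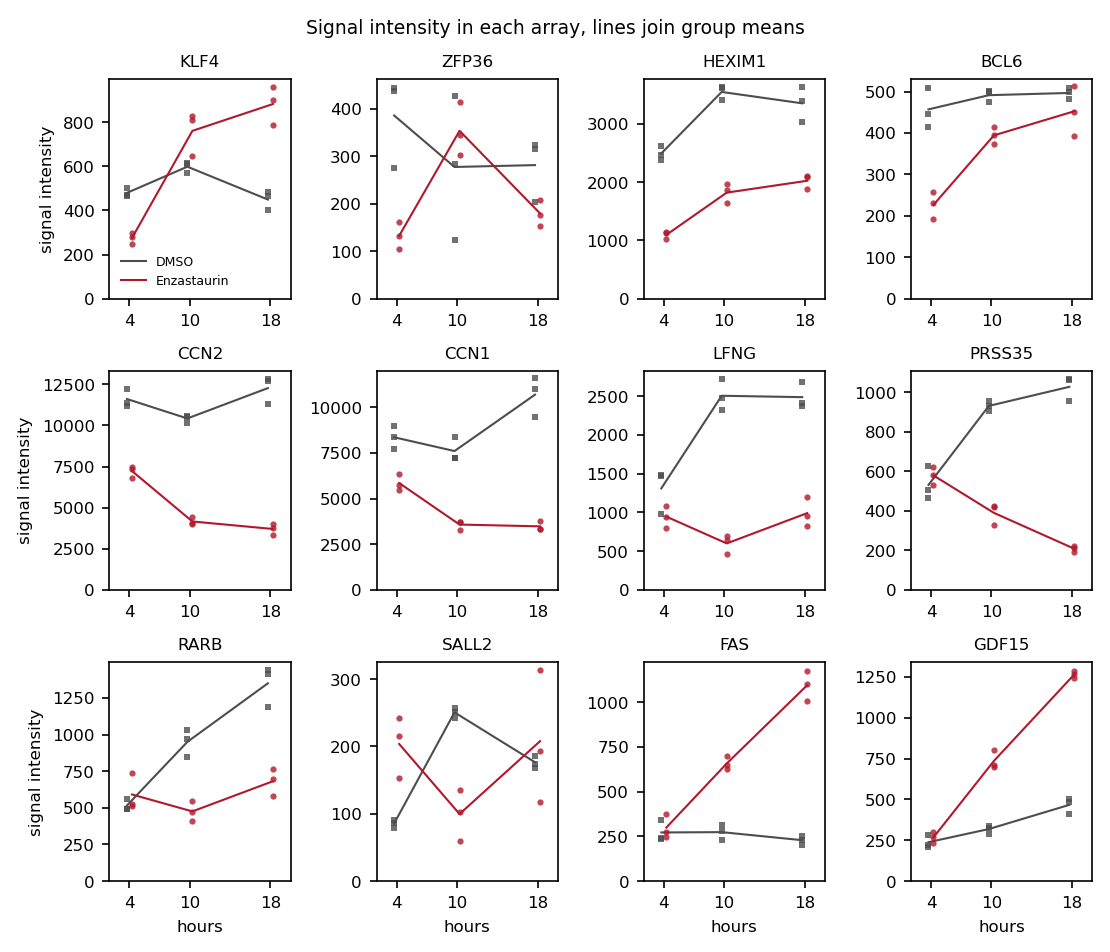
Signal intensity in each array (points) at 4, 10 and 18 h of DMSO (grey squares) or enzastaurin (red circles), with lines joining group means, for 12 genes. KLF4 starts below DMSO and ends above it, HEXIM1 stays below DMSO at each time, CCN2 and CCN1 fall with enzastaurin, and LFNG, PRSS35 and RARB rise in DMSO cells but not in enzastaurin cells from 4 to 10 h.

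Of the 22 NF-kB cytokine and feedback genes tested, 6 fell, none rose and 16 did not pass, and the largest falls, of CXCL8, CCL2 and PLAU, were called in DMSO cells too. CXCL8, the neutrophil chemokine interleukin 8, was at 2125, 1963 and 1467 at 4 h and 348, 325 and 273 at 10 h of enzastaurin (-2.48, SE 0.21, adjusted p = 1.4e-07), the largest fall among the named genes. In DMSO cells it went from 1695, 1418 and 1399 to 305, 224 and 292 (-2.40), and the difference of -0.09 had an SE of 0.30 and did not pass (adjusted p = 0.955). PLAU, the urokinase gene, read 7122, 6532 and 7536 and then 2291, 2144 and 2054 (-1.70, adjusted p = 4.0e-11) against -1.63 in DMSO cells, with a difference of -0.07 (SE 0.11). The monocyte chemokine CCL2 changed by -2.06 and by -1.86 in DMSO cells (difference -0.20, SE 0.46). In DMSO cells 6 members also fell and none rose, and the medians were -0.19 with enzastaurin and -0.26 with DMSO.

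The NF-kB inhibitor genes NFKBIA (-0.46, DMSO -0.76) and TNIP1 (-0.78, DMSO -0.39, not called) were among the falls. The NF-kB subunits were not called, with NFKB1 at -0.07, RELA at -0.07 and RELB at -0.51. TNFAIP2 was the member whose difference passed, falling by 0.82 with enzastaurin against -0.26 with DMSO (difference -0.56, adjusted p = 0.0449), and that call was lost when any 1 of the 12 arrays was left out (adjusted p up to 0.138). EDN1, the vasoconstrictor peptide endothelin 1, fell further with enzastaurin, from 2118, 2043 and 2041 to 499.7, 518 and 614 (-1.90), than in DMSO cells, from 2115, 1865 and 1941 to 808, 919 and 1024 (-1.10). The difference was -0.80 (adjusted p = 0.0366) and was lost without any 1 of 9 of the 12 arrays (up to 0.105). NRG1, a ligand of ERBB receptors, fell in both (-1.48 and -1.45), but of its 6 probe sets only the brightest was called, and their average changed by -0.26. NEXN, an actin-binding protein gene, changed by -1.63 and -1.09.

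**Figure D5:**
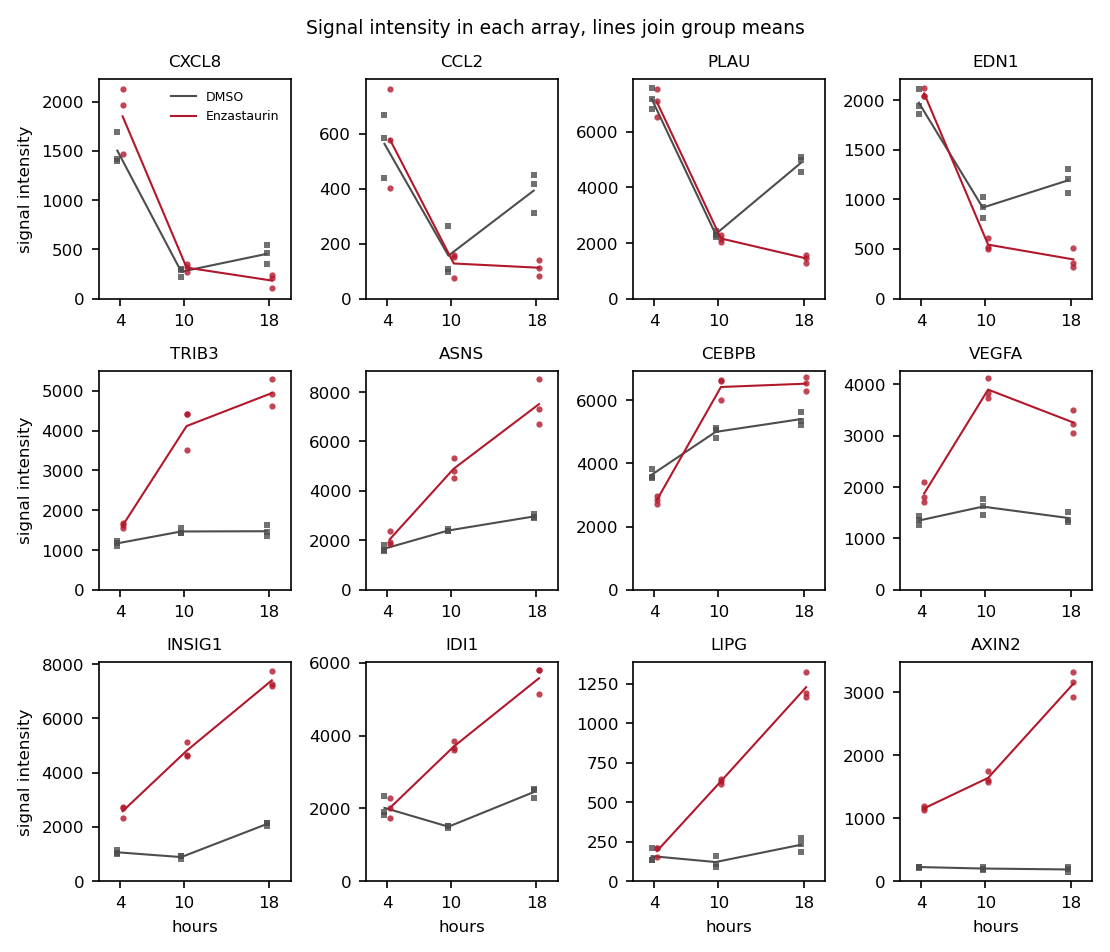
Signal intensity in each array (points) at 4, 10 and 18 h of DMSO (grey squares) or enzastaurin (red circles), with lines joining group means, for 12 genes. CXCL8, CCL2 and PLAU drop between 4 and 10 h in both arms. Over the same hours TRIB3, ASNS, VEGFA, INSIG1, IDI1 and LIPG climb in the enzastaurin arm, and TRIB3, ASNS and VEGFA rise less in DMSO cells. AXIN2 is high in the enzastaurin arm from 4 h on.

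Of the other 17 genes with the largest changes, 12 had a group mean below the median level of 102 at 1 of the times. Among the 15 largest rises were JAKMIP3 (2.47, and 2.53 in DMSO cells), SCAND2P (2.18), OSGIN1 (1.49), SETDB2 (1.37), BORCS5 (1.30), ATP12A (1.30), TIGD5 (1.30) and CHST1 (1.26). JAKMIP3 had 9.7, 9.6 and 20.1 at 4 h and 168, 158 and 109 at 10 h. CHST1, a sulfotransferase gene, was at 326, 390.5 and 396 and then 948, 924 and 859.6, with a DMSO change of 1.18. The largest falls beside those above were GPRC5A (-2.09), PIDD1 (-2.08), MARCHF10 (-1.91), MMP28 (-1.87), CCDC9B (-1.51), WDR13 (-1.50), FOXN4 (-1.48), ZNF687 (-1.48) and GBP1 (-1.44). MARCHF10, a ubiquitin ligase gene, went from 633, 551 and 510.3 to 160.5, 130.1 and 126. With probe sets averaged SCAND2P (0.70, adjusted p = 0.0812), TIGD5 (1.30, adjusted p = 0.0581) and FOXN4 (-0.28, adjusted p = 0.53) were not called. The changes of SETDB2 (0.62), CHST1 (0.58), GPRC5A (-1.01), PIDD1 (-1.34), MARCHF10 (-1.19) and MMP28 (-0.73) were then smaller by over 1.5 times and were called. None of these 8 rises and 9 falls passed the test of the difference from DMSO. The calls of ATP12A, TIGD5, PIDD1, FOXN4 and WDR13 each failed when single enzastaurin arrays were left out, 3 to 5 of the 6 depending on the gene (adjusted p up to 0.242).

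Targets of YAP and TGF-beta, which respond to adhesion and matrix tension, fell with enzastaurin in 17 of 33 tested members and rose in 4. In DMSO cells 12 fell and 3 rose (median -0.15), and the difference was more negative for 3 members. CCN2 (connective tissue growth factor), a standard YAP target, had 7377, 7481 and 6826 at 4 h and 4085, 4419 and 3976 at 10 h (-0.79, adjusted p = 3.8e-07). Its DMSO arrays were higher at both times, at 11194, 11389 and 12245 and 10599, 10132 and 10545 (-0.15), and the difference was -0.64 (adjusted p = 0.00278). CCN1, the related matricellular gene CYR61, fell from 5476, 5721 and 6354 to 3737, 3710.3 and 3282 (-0.71), with a difference of -0.57 (adjusted p = 0.0274) that was lost without any 1 of 5 of the 12 arrays (up to 0.0791). AMOTL2 (-0.60), ANKRD1 (-0.70) and CRIM1 (-0.64) fell as well.

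Of 7 matrix genes 6 fell with enzastaurin and 5 with DMSO, among them COL1A2 (-0.55 and -0.37), COL4A1 (-0.43 and -0.38), COL4A2 (-0.41 and -0.35) and the crosslinking enzyme LOX (-0.44 and -0.36). Of the TGF-beta feedback genes, PMEPA1 fell (-0.79 and -1.05) and TGIF1 rose (0.99 and 0.92) in both. SMAD6, an inhibitory SMAD, fell by 0.43 with enzastaurin and rose by 0.40 with DMSO (difference -0.83, adjusted p = 0.011). The TEAD letters GGAATG, on either strand, were in 5 of 28 promoters of the list (17.9%), CCN2 and ANKRD1 among them, and in 11% of all. With probe sets averaged 12 members fell and none rose, TGIF1 (0.58) and TNC (-0.48) not being called. In the list of ID and BMP genes, FST, follistatin, fell (-0.67), ID1 (-0.11) and ID3 (-0.20) did not pass, and in all 1 of 7 fell and none rose, against 2 higher and 1 lower in DMSO cells. Without the second or the third array at 10 h 2 of the 7 were called.

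Wnt feedback genes and targets rose in part. AXIN2, which had 228, 214 and 228 in DMSO cells at 4 h, was at 1189.5, 1125 and 1157 at 4 h of enzastaurin and 1609, 1743 and 1571 at 10 h (0.50, SE 0.13, adjusted p = 0.0129). The arrays at 10 h were all above those at 4 h, the call was lost without the second array at 10 h (adjusted p = 0.0626), and the difference from DMSO did not pass (0.65, adjusted p = 0.102). TNFRSF19, a receptor and Wnt target, rose by 1.15 from 876, 729 and 999 to 2024, 2042 and 1758, with a difference of 0.88 (adjusted p = 0.0194) that was lost without any 1 of 6 of the 12 arrays (up to 0.0597). LEF1, the DNA-binding partner of beta-catenin, rose by 0.81 (DMSO 0.42), and the feedback ligase gene ZNRF3 by 0.41. DKK1, a secreted Wnt antagonist, fell by 0.70 (DMSO -0.25).

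In the Wnt list as a whole 5 of 17 rose and 3 fell (median 0.23), against 4 and 2 in DMSO cells. CCND1, cyclin D1, fell less with enzastaurin than without it, from 6568, 6013 and 6505 to 4404, 4447 and 4599.7 (-0.50), against 5632, 5481 and 5740.2 to 2844, 2809 and 2846 in DMSO cells (-0.98, difference 0.48, adjusted p = 0.00905). That difference did not pass with probe sets averaged (adjusted p = 0.232) or with array medians subtracted (adjusted p = 0.328). The TCF letters CTTTGAT were in 1 of 10 promoters of the list, that of FGF18, and in 1.5% of all. Of the genes for GSK3, protein kinase C and the beta-catenin destruction complex 4 of 16 rose and 1 fell (25% and 6.25%), in DMSO cells 3 and none. Without any 1 array other than the third at 4 h, 2 or 3 of the 16 rose and none fell. GSK3B rose by 0.60 (DMSO 0.41), and GSK3A by 0.38, a call that failed in 5 of 6 fits with 1 enzastaurin array left out (up to 0.131). CTNNB1, the beta-catenin gene, fell by 0.23, a call also lost without any 1 of 5 (up to 0.214). No protein kinase C gene passed, with PRKCA at -0.14 and PRKCB at 0.70. With probe sets averaged GSK3A (0.06), GSK3B (0.26), CTNNB1 (-0.31) and LEF1 (0.48) lost their calls.

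MYC, from the 1 probe set that names it, was at 1032, 943 and 1121 at 4 h and 968, 955 and 826 at 10 h of enzastaurin (-0.17, SE 0.11, adjusted p = 0.328), so no change over time was called. DMSO arrays read 1544, 1652 and 1857 and 1626, 1524 and 1512, above the enzastaurin arrays at both times. In the list of MYC and its partners 2 of 15 rose (MAX 0.27, MGA 1.19) and 1 fell (CAD -0.33). These were 13.3% and 6.67% of the list, near the 10.2% and 6.92% of all genes, and in DMSO cells 2 rose and 1 fell. The call of MAX failed in 5 of 6 fits with 1 enzastaurin array left out (adjusted p up to 0.253). Without the second enzastaurin array at 4 h, 1 member of this list fell and none rose, and with probe sets averaged MAX (0.09), MGA (0.49) and CAD (-0.18) were not called. MXI1, a MYC antagonist, rose in DMSO cells (0.83) and not with enzastaurin (0.01, difference -0.82, adjusted p = 0.0417). Ribosome biogenesis genes, many of them MYC targets, had 1 of 26 higher and 3 lower (3.85% and 11.5%, median -0.04). In DMSO cells 1 was higher and 10 lower (median -0.14), and no member passed the difference. Without the second enzastaurin array at 10 h 1 rose and 1 fell. Their promoters held the E-box CACGTG in 8 of 21 (38.1%) against 10.1% of all promoters.

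LFNG, PRSS35 and SALL2 moved in opposite directions in the 2 arms, each called in both. LFNG, a glycosyltransferase that modifies Notch receptors, fell from 1085, 946 and 803 to 690.3, 640.2 and 466 with enzastaurin (-0.65) and rose from 1465, 1479 and 982 to 2319, 2714 and 2478 in DMSO cells (0.95, difference -1.60, adjusted p = 9.1e-04). PRSS35, a serine protease gene, fell from 625, 580.1 and 534 to 417, 425 and 327 and rose from 464, 627 and 504 to 957, 933 and 906 in DMSO cells (difference -1.36, adjusted p = 5.5e-04). The zinc finger gene SALL2 had 215, 242 and 154 and then 103, 136 and 60 with enzastaurin, and 86.0, 91.3 and 79.3 and then 242, 252 and 257 with DMSO. For SALL2 the arms did not overlap at either time and traded places (difference -2.35, adjusted p = 0.00538), though its change of -0.96 was not called in 4 of 6 fits with 1 enzastaurin array left out (up to 0.126). The SALL2 means at 4 h of DMSO (85.5) and 10 h of enzastaurin (99.6) were under the median level of 102, so these sizes are not firm. Its difference between arms at 4 h was not called by limma (adjusted p = 0.0602).

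SOX2-OT, a long noncoding RNA that overlaps SOX2, changed by -0.84 with enzastaurin and 0.41 with DMSO (difference -1.24, adjusted p = 0.00295), while SOX2 itself rose in both arms (0.95 and 0.64). The 2 genes overlap, so their signals are uncertain where a probe set could read both, and SOX2 lost its call with probe sets averaged (0.17, adjusted p = 0.688). RARB, a retinoic acid receptor, rose in DMSO cells (0.86) and not with enzastaurin (-0.29, adjusted p = 0.185), a difference of -1.15 (adjusted p = 0.00565) that did not pass with probe sets averaged (adjusted p = 0.766). CILP, a cartilage matrix gene, was not called with enzastaurin (0.53) and fell by 0.99 with DMSO (difference 1.52, adjusted p = 0.0491), a call lost without any 1 of 11 of the 12 arrays (up to 0.131). With probe sets averaged LFNG changed by 0.02, its dimmer probe set having a change of 0.69 that was not called. In the Notch and ephrin list 4 of 17 rose and 3 fell (23.5% and 17.6%), in DMSO cells 3 and 2. JAG1, a Notch ligand, fell in both (-0.50 and -0.52).

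Growth arrest and death genes rose in part, and some fell. Of 24 tested p53 targets 9 rose and 3 fell (median 0.19), against 6 and 2 in DMSO cells. Without the first enzastaurin array at 4 h 7 rose and none fell, and without the second at 10 h 6 and none. GDF15, a stress cytokine of the TGF-beta family, went from 298, 269.9 and 235 to 799.7, 708 and 697 (1.41, adjusted p = 4.6e-07), with a difference of 1.0 (adjusted p = 0.00816) that did not pass with probe sets averaged (adjusted p = 0.586), where its change was 0.66. FAS, the death receptor, went from 248, 273 and 376 to 649, 698 and 624 (1.11) and stayed at 314, 228 and 278 in DMSO cells at 10 h, a difference of 1.10 (adjusted p = 0.0239) that was lost without any 1 of 7 of the 12 arrays (up to 0.0818), and its averaged probe sets changed by 0.73. MDM2 (0.51) and RRM2B (0.63, and 0.68 in DMSO cells) rose, while CDKN1A, which encodes the cell cycle inhibitor p21, was not called (0.20). Of 24 apoptosis regulators 7 rose and 4 fell, in DMSO cells 3 and none, with the death-promoting BCL2L11 (0.40) and the survival gene MCL1 (0.37) higher and BCL2L1 (-0.66) lower. The death-promoting BID fell (-0.58, adjusted p = 1.7e-04), with -0.26 in DMSO cells, not called. The caspase inhibitor XIAP (0.48) and the receptor TNFRSF1A (0.84, and 0.94 in DMSO cells) rose.

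Of 42 G1/S and replication genes 8 rose and 10 fell (19% and 23.8%, against 10.2% and 6.92% of all genes, median -0.10), in DMSO cells 4 and 5. CCNE1 (0.50), CCNE2 (0.35) and the origin factor CDC6 (0.47) were higher, and CDK6 (-0.61), MCM5 (-0.46) and CDC45 (-0.43) lower, CDK6 not being called with probe sets averaged (-0.33, adjusted p = 0.14). Of 45 mitotic genes 6 rose and 4 fell with enzastaurin (13.3% and 8.89%, near the shares of all genes, median 0.04), while 2 rose and 9 fell with DMSO (median -0.06). The mitotic kinase AURKA read 8546, 9168 and 8874 and then 9348, 9535 and 11295 with enzastaurin and 11541, 10690.4 and 12347 and then 7881, 8233 and 8090.5 with DMSO, so that it fell in DMSO cells alone (difference 0.69, adjusted p = 0.00278). PLK1 (0.43) and PLK4 (0.48) differed in the same way. The cell cycle homology letters TTTGAA were in 24 of 37 promoters of the mitotic list (64.9%, against 10.4% of all) and CCAAT in 27 (73.0%, against 37.2%). Of 6 clustered histone genes tested 1 rose and none fell: H2BC12 went from 594, 552 and 493 to 823, 1138 and 1063 (0.86, difference 0.92, adjusted p = 0.0183, lost without any 1 of 3 of the 12 arrays). In DMSO cells 1 histone gene fell. Without the second enzastaurin array at 10 h 1 rose and 1 fell. With array medians subtracted 2 G1/S genes rose and 4 fell, and 1 mitotic gene rose and 3 fell.

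Of 32 genes of glucose uptake, glycolysis and glycogen 1 rose and 6 fell (median -0.14), in DMSO cells none and 10 (median -0.17), and no member's difference passed. TXNIP, which brakes glucose uptake and responds to glucose, fell by 0.58 with enzastaurin and by 0.99 with DMSO. PFKP (-0.48 and -0.51), a phosphofructokinase, and PYGB (-0.62 and -0.64), a glycogen phosphorylase, fell alike, both calls being lost with probe sets averaged. The glucose transporter gene SLC2A3 rose (0.78), and SLC2A1 (-0.35) and LDHA (-0.07) did not pass. In the hypoxia list 6 of 19 rose and none fell, against 8 and 1 in DMSO cells, and the difference was more positive for 3 members (VEGFA, INSIG2 and ADM) and more negative for 1 (MXI1). Its rises were VEGFA, INSIG2, STC2, DDIT4, EGLN1 and ADM, of which 4 are also members of the ATF4 or sterol lists, with EGLN1 not called when probe sets were averaged (adjusted p = 0.383), while HIF1A (-0.20) and BNIP3 (-0.12) did not pass. ADM, adrenomedullin, had a difference of 0.44 (adjusted p = 0.0444), lost without any 1 of the 12 arrays (up to 0.114). That of INSIG2 was 0.79 (adjusted p = 0.037), lost without any 1 of 9 of the 12 arrays (up to 0.103).

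Of 12 antioxidant genes under NRF2 6 rose with enzastaurin and 5 with DMSO, none fell, and none passed the difference. Called in both arms were GCLC (0.77 and 0.80), HMOX1 (0.76 and 0.93), SRXN1 (0.77 and 0.47), GCLM (0.49 and 0.26) and OSGIN1 (1.49 and 0.95). Of the metallothioneins, which bind zinc, MT1E, MT1F, MT1G, MT1H and MT2A rose in DMSO cells and none was called with enzastaurin. MT1G went from 4436, 4590.5 and 4911 to 8519, 9746 and 9707 there and from 3887, 4006 and 3844 to 3914, 4270.5 and 3714 with enzastaurin (difference -0.98, adjusted p = 9.1e-04), and MT2A differed by -0.50, the other members not passing the difference except the zinc exporter gene SLC30A1 (0.81). The joint list had 7 of 21 higher and none lower with enzastaurin and 11 higher and 1 lower with DMSO. Of 16 heat shock genes 4 rose and none fell in each arm, DNAJB4 by 1.02 and 1.05. Of 24 insulin and FOXO genes 5 rose and 3 fell (20.8% and 12.5%), in DMSO cells 4 and 2. AKT2 fell by 0.62 with enzastaurin and not with DMSO (0.32, difference -0.94, adjusted p = 0.0212).

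Of 13 clock genes 4 rose and none fell, against 2 and none in DMSO cells, with the repressors BHLHE40 (0.72 and 0.63) and CRY1 (0.40 and 0.13) among them. Of 24 lysosome and autophagy genes 4 rose and 1 fell (16.7% and 4.17%), in DMSO cells 4 and none. Without either of the first 2 arrays of each time, 1 to 3 members were called in place of 5. GABARAPL1, an autophagosome gene, rose with DMSO alone (0.82, difference -0.66, adjusted p = 0.0302). Of 19 interferon-stimulated genes 4 fell and none rose, in DMSO cells 2 and 2, and 2 fell without the third enzastaurin array at 4 h, with IFI44L at -1.14 and -0.87.

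Markers of the cell line were compared over the same hours. Of 13 tested glial and glioma markers 2 rose and 6 fell (median -0.22), in DMSO cells 2 and 5 (median -0.17). SOX2 (0.95) and SOX9 (0.39) were higher, and FABP7 (-0.68), NES (-0.60), TNC (-0.48), CD44 (-0.22), EGFR (-0.32) and MET (-0.34) lower. The summed intensity of the 20 markers ran from 86005 to 92194 at 4 h of enzastaurin and from 75554 to 80544 at 10 h. In DMSO cells it also fell, from 84654 to 93203 at 4 h to 76379 to 84578 at 10 h. VIM (mean 33700 at 4 h of enzastaurin) and CD44 (22400) made up most of this sum. VIM and CD44 were bright. Of the glial markers, FABP7, SLC1A3 and ALDH1L1 were above the median level of all probe sets, and GFAP, S100B and AQP4 were below it. Of the stem markers, SOX2, SOX9 and NES were above that level, and PROM1 and OLIG2 were below it. Markers of other cell types had 7 of 26 members tested and none called, with sums of 2250 to 2346 at 4 h and 1948 to 2964 at 10 h. The part of these marker levels in the changes above was not tested. Averaging probe sets left 1 glial marker higher and 1 lower, with SOX2, NES and TNC not called, and leaving out any 1 array other than the third at 4 h left 5 called in place of 8.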

How the data were processed

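Values came from 18 arrays of U251 cells under DMSO or enzastaurin at 4, 10 and 18 h, 3 in each group. The authors deposited 1 table of signal intensity per probe set, scaled so that trimmed array means were 498.2 to 498.5, and GCOS 1.2 is named in the submitters' processing notes. Scanner files were not analysed here, so background correction could not be varied. Of 54613 probe sets 41091 had 1 gene symbol, 1801 several and 11721 none in the platform annotation, and 41037 were matched by gene ID to RefSeq (GRCh38.p14). Each gene was read from its brightest probe set and kept when its mean of log2(intensity + 16) over the arrays was above the median of all probe sets. A limma 3.58.1 model with 1 mean per group was fitted in R 4.3.3 to all 18 arrays, with a trended variance and Benjamini-Hochberg adjustment over the genes tested, and a gene was called at an adjusted p under 0.05. Fits were tested on simulated data.

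The members and gene lists were chosen with earlier results of these data known. Named genes were the 15 largest called rises and falls whose arrays did not overlap between times and whose brighter group reached the median level, up to 4 members of each list by smallest adjusted p, MYC, AXIN2, GSK3A and GSK3B in any case, and the 5 largest called differences in each direction, passing over uncharacterized loci. Other list members named were picked with their values in view. Alternatives changed the offset, filter, normalization, probe set rule, variance trend, array weights, replicate block and arrays used. Same-numbered arrays at 4 and 10 h deviated with correlations of -0.133, -0.0753 and 0.0509, so the numbers were not taken as pairs. Figures used Python 3.11.15 and matplotlib 3.10.9.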

Additional observations from a re-analysis of the deposited data

Results flagged for a closer look

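The change from 4 to 10 h differed between enzastaurin and DMSO cells, by limma's test of the difference, for 35 of the named genes. Among the 35 named genes the difference, enzastaurin minus DMSO on the log2 scale, was positive for 26. It was 2.38 for TAMALIN, 2.02 for LIPG, 1.90 for ZFP36, 1.52 for CILP, 1.40 for SESN2, 1.30 for IDI1, 1.16 for INSIG1, 1.10 for KLF4 and FAS, 1.02 for STARD4, 1.01 for TRIB3 and 1.0 for GDF15. It was 0.92 for H2BC12, 0.88 for TNFRSF19, 0.86 for CTH, 0.79 for INSIG2 and VEGFA, 0.75 for MSMO1, 0.73 for ASNS, 0.72 for DUSP5, and 0.71 for CEBPB and XBP1. The smallest were 0.51 for IRS2, 0.48 for CCND1, 0.44 for ADM and 0.38 for IER5. The difference was negative for the other 9, with -0.56 for TNFAIP2, -0.57 for CCN1, -0.64 for CCN2, -0.80 for EDN1, -1.15 for RARB, -1.24 for SOX2-OT, -1.36 for PRSS35, -1.60 for LFNG and -2.35 for SALL2. When each of the 12 arrays was left out in turn, 21 of the 35 passed every time and 14 were lost at least once. No explanation of these differences was tested.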

How the results depend on the processing

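The 2125 genes called over time with enzastaurin became 1156 with array medians subtracted (716 higher, 440 lower), 1277 with probe sets averaged (748 and 529) and 96 with a 2-fold minimum. They ranged from 1443 to 2068 with 1 array left out. The 174 differences from DMSO became 114 with no filter, 26 with array medians subtracted, 68 with probe sets averaged, 90 with no variance trend and 25 with a 2-fold minimum, and ranged from 67 to 154 with 1 array left out, lowest without the first enzastaurin array at 4 h. The 2243 genes called in DMSO cells became 1319 with probe sets averaged, 3419 over every probe set and 93 with a 2-fold minimum, and ranged from 1503 to 1820. With the replicate block the counts were 2108, 155 and 2246, and the block ended the calls of PIDD1 and UTP20 among the named genes. Averaging probe sets turned the direction of ATP6V1H (-0.16), BHLHE41 (-0.08), HEXIM1 (-0.08), IFI44 (0.05), LFNG (0.02) and PFKP (0.01). These averages include dim probe sets. For HEXIM1 a probe set with a mean of 58.5 changed by -1.32, not called, beside 0.72 and 0.36 for the brighter ones. Of 126 named genes called, 106 were called in every left-out fit, 19 lost their call with array medians subtracted and 34 with probe sets averaged. The causes were not tested. Signal over background limits the dim genes.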
